A study of Homo sapiens with 32 samples.

Results

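The subunits described here are those of the integrins that bind laminin or collagen. They were taken by gene symbol, as protein-coding rows of the deposited count tables, and all 9 were found: ITGA1, ITGA2, ITGA3, ITGA6, ITGA7, ITGA10, ITGA11, ITGB1 and ITGB4, of 19815 protein-coding genes in all. The counts came from 32 RNA-Seq libraries of the non-tumourigenic breast epithelial line MCF10A and from MDA-MB-231, a line derived from a triple-negative breast carcinoma. Cells were grown in normoxia (N), in 0.5% O2 for 24 hours (H), in normoxia with 2.5 µM PP242 for 3 hours (NPP), or in hypoxia with the same PP242 treatment (HPP). PP242 is an inhibitor of the mTOR kinase and acts on both mTOR complexes. Total mRNA (T) and mRNA bound to polysomes (P) were sequenced from each condition, with 2 biological replicates of each of the 16 groups. The groups differed in line, oxygen, PP242 and fraction, and no allele or transgene was labelled. Medium went with line: that of MCF10A also held EGF, hydrocortisone, cholera toxin and insulin, and that of MDA-MB-231 did not. Each line is a single established culture line and stands for itself alone.

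Integrins are receptors of an α and a β subunit that tie the extracellular matrix to the cytoskeleton. ITGB1 pairs with ITGA3, ITGA6 and ITGA7 to bind laminins and with ITGA1, ITGA2, ITGA10 and ITGA11 to bind collagens. ITGB4 pairs with ITGA6 alone, and this receptor holds the basal surface of epithelial cells to laminin-332 in hemidesmosomes, where plectin links it to keratin filaments. In breast epithelium the laminin receptors mark the basal layer, which faces the basement membrane.

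Library totals ran from 18340916 to 46032327 counts, with a median of 34561484, and the lowest total was that of MDA-MB-231 N T replicate 2. NPP T replicate 2 and HPP T replicate 2 of MCF10A stood apart from their replicates. In the first of them ribosomal protein mRNAs took 17.7% of the counts against 9.94% in replicate 1. Its TMM scaling factor, computed within the line, was 0.764 and the lowest of the 16 MCF10A libraries. In the other the shares were 12.8% and 9.30% and the factor was 0.826. N P replicate 1 of MCF10A, a control of the P comparisons, had a share of 14.3% against 8.94% in replicate 2 and a factor of 0.808. In NPP T replicate 2, ITGB1 had 11773 counts, its lowest value in any MCF10A library, and ITGA2 had 27. The members in MCF10A were therefore also fitted without both libraries that stood apart, while N P replicate 1 was kept. That fit left 1 library each in NPP T and HPP T, so the spread for these came from the other groups. The same holds for a group from which a single library was left out. The part of library composition in any result was not tested. Mitochondrial mRNA took 4.78% to 7.94% of the counts in T and 0.394% to 1.12% in P in both lines. The share of ribosomal protein mRNA in P was 8.94% to 14.3% in N and 1.45% to 2.97% in HPP, and the part of this shift in the changes described here was not tested.

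The condition labels were checked with genes known to respond to each agent. CA9, a HIF target, lay between 577 and 1540 CPM (TMM-scaled counts relative to library size) in the hypoxic MCF10A libraries, against at most 29.1 in the normoxic ones. In MDA-MB-231 the lowest hypoxic value was 11.1 and the highest normoxic value 0.917. Of 8 mRNAs with a 5′ terminal oligopyrimidine tract, which need mTOR for their translation, 7 fell in MCF10A HPP P and 8 in MDA-MB-231 HPP P. In NPP P 7 fell in MDA-MB-231 and none of the 8 passed in MCF10A, where their median log2 change was −1.83. The line labels fitted some markers and not others. The basal keratins KRT5, KRT14, KRT17 and KRT6A were present in MCF10A, with KRT5 at 1410 to 3840 CPM, and KRT5 had no more than 5 counts in any MDA-MB-231 library. CDH1, EPCAM and TP63, which also mark epithelial or basal cells, were near 0 in MCF10A, with no more than 16, 16 and 10 counts in any library. EPCAM was higher in MDA-MB-231, at 8.67 to 16.9 CPM. Of the mesenchymal markers, VIM was high in both lines (at least 1830 CPM in MCF10A and 2740 in MDA-MB-231). CDH11 was at 69.7 to 126 CPM in MDA-MB-231 and near 0 in MCF10A, and ZEB1 was at 38.5 to 79.1 and 5.35 to 37.4. SPARC and TWIST1 were near 0 in MDA-MB-231 and present in MCF10A. FN1 was at 68.0 to 251 CPM in MDA-MB-231 and 1140 to 9770 in MCF10A. Of the leukocyte markers, CD3E was at 0 in MCF10A with at most 3 counts of PTPRC and 2 of LYZ, and in MDA-MB-231 PTPRC was the highest, at up to 0.951 CPM. Of the endothelial markers CDH5 had at most 2 counts, VWF at most 11, and PECAM1 reached 2.19 CPM.

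In normoxic total mRNA the most abundant members were ITGB1 and ITGA3 in both lines. Levels are compared here as CPM per kilobase of the canonical transcript, since CPM alone favours long messages. In MCF10A, ITGB1, the shared β subunit, stood at 362 ± 57.6 CPM per kb (SD, n = 2), followed by ITGA3, the laminin-332 and laminin-511 receptor subunit, at 135 ± 11.0. ITGB4 came next at 38.9 ± 0.615, ahead of its partner ITGA6 at 27.6 ± 0.219. The collagen receptor subunits were lower, with ITGA10 at 5.85 ± 0.0707, ITGA2 at 1.33 ± 0.150 and ITGA1 at 0.916 ± 0.210. ITGA7, best known from muscle, was at 0.0803 and ITGA11, best known from fibroblasts, at 0.0112. Neighbours in this order did not overlap between the replicates, and the order was the same when exon unions replaced the canonical transcript as the length.

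In MDA-MB-231, ITGB1 was again first at 266 ± 44.5 CPM per kb and ITGA3 second at 67.0 ± 5.25. ITGA6 followed at 28.7 ± 6.41, then ITGA2, a collagen receptor subunit, at 8.21 ± 3.15. ITGB4 came after these at 2.63 ± 0.771. ITGA1 at 1.38 ± 0.486 and ITGA10 at 0.864 ± 0.487 overlapped. ITGA11 and ITGA7 were last, at 0.0264 and 0.0153, and overlapped too.

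In the 32 libraries ITGA7 never had more than 29 counts and ITGA11 never more than 11. ITGA11 was filtered out of the tests in both lines and ITGA7 in MDA-MB-231, so 8 members were tested in MCF10A and 7 in MDA-MB-231.

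**Figure D1:**
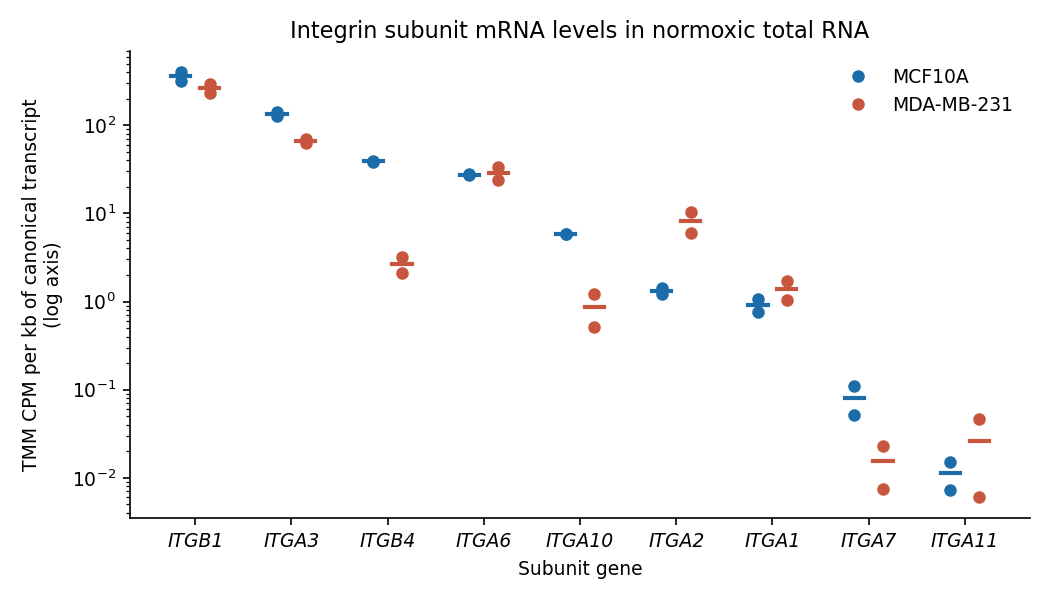
Levels of the 9 subunit mRNAs in normoxic total RNA, as TMM CPM per kb of canonical transcript on a log axis. Points are libraries (2 per line) and bars are means. ITGB4 and ITGA10 are lower in MDA-MB-231 and ITGA2 is higher, while ITGA7 and ITGA11 are close to 0 in both lines.

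The lines differed most in ITGB4. In normoxic T its level was 38.4 and 39.3 CPM per kb in the MCF10A libraries and 2.09 and 3.18 in those of MDA-MB-231, a log2 difference of −3.88 (SE 0.46, adjusted p = 6.86e-07 by the quasi-likelihood test of edgeR over all genes, in a fit of the 32 libraries). ITGA10 was lower in MDA-MB-231 by a log2 difference of −2.74 (SE 0.48, adjusted p = 9.41e-05 by edgeR) and ITGA3 by −1.02 (SE 0.30, adjusted p = 0.0104). ITGA2 was the one called member that was higher in MDA-MB-231, by 2.62 (SE 0.79, adjusted p = 0.0104). ITGA7 was also lower, by −2.47 (adjusted p = 0.0249 by edgeR and 0.0631 by DESeq2), from few reads (7 and 18 counts against 1 and 2). It passed the low-count filter in the fit of MCF10A and not in that of MDA-MB-231. The line where it was higher thus kept it in the test, so this call decides nothing. ITGA6, ITGA1 and ITGB1 did not pass, at log2 differences of 0.06 ± 0.50, 0.59 ± 0.43 and −0.45 ± 0.36 (value ± SE). A fit of only the libraries compared called ITGA1 and did not call ITGA7. Thus 5 of 8 tested members were called (adjusted p under 0.05), ITGA7 included, against 40.7% of all 14298 tested genes. Such calls are common at that share. Without MCF10A N T replicate 2 the calls were 2, and without MDA-MB-231 N T replicate 1 they were 3. The lines were deposited in separate tables, so line, its medium and any batch that goes with it cannot be told apart.

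ITGB4 (ENSG00000132470.13) is a gene of 40 exons at chr17:75721328-75757818 (GRCh38, plus strand). It was the only member called in MCF10A by edgeR in the fit of all 16 libraries without a block. In T its level was 197 and 192 CPM in the N libraries, 519 and 520.3 in H, 423 and 660.5 in NPP, and 995 and 1066 in HPP. The values are CPM after scaling within the line, replicate 1 first. Each treated group lay above the N libraries, and both HPP libraries lay above all others. In P the level was 204 and 206 in N, 372 and 675 in H, 507 and 472 in NPP, and 859 and 1155 in HPP. Here too the treated libraries lay above both N libraries without overlap.

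Under HPP, ITGB4 rose 5.30-fold in T (log2 2.41, SE 0.32, adjusted p = 0.000844 by edgeR) and 4.92-fold in P (log2 2.30, SE 0.32, adjusted p = 0.000776). Both calls held when any one of the 16 libraries was left out, with an adjusted p of at most 0.0178 in T and 0.0138 in P. Without both libraries that stood apart the log2 changes were 2.38 and 2.35.

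In H the message rose 2.67-fold in T (log2 1.42, SE 0.31), at an adjusted p of 0.0497 by edgeR that passed the threshold by little and was kept in 4 of 16 fits with a library left out. Without both libraries that stood apart it was 0.0319 (log2 1.45). In H P the fold was 2.56 (adjusted p = 0.0610 by edgeR). With PP242 in normoxia the folds were 2.78 in T and 2.39 in P (adjusted p = 0.0693 and 0.0853 by edgeR), and without both libraries the log2 changes were 1.11 and 1.22 (adjusted p = 0.318 and 0.0566). By DESeq2, ITGB4 was called in each of these 6 comparisons. Within T of MCF10A, libraries of the same replicate number deviated together, and with a replicate block within fraction ITGB4 was called in NPP T as well (log2 1.46, SE 0.27, adjusted p = 0.0239 by edgeR). The 3 conditions were set against the same N libraries, so these values are not independent of each other.

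Among the 8 members tested in MCF10A, ITGB4 alone was called: 1 of 8 in H T against 1.54% of all 13124 tested genes, 1 of 8 in HPP T against 14.9%, and 1 of 8 in HPP P against 22.2%. In H P, NPP T and NPP P no member was called without a block, against 1.49%, 0.648% and 0.823% of all genes. With the replicate block within fraction, ITGB4 was called in each of them. At an unadjusted p under 0.05 and without a block these comparisons held 1, 1 and 2 members, against 1636, 1252 and 1752 of the 13124 genes. DESeq2 called 1 member in each, against 556, 358 and 665 genes. For the 8 members the median log2 change in HPP T was 0.39 and that in HPP P 1.11, against −0.01 and −0.04 over all tested genes. Without both libraries that stood apart the medians lay closer together, at 0.80 in T and 1.16 in P. Both P medians used N P replicate 1 as a control. All CPM values are shares of a library, so a change in every cell and a change in some of the cells cannot be told apart.

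**Figure D2:**
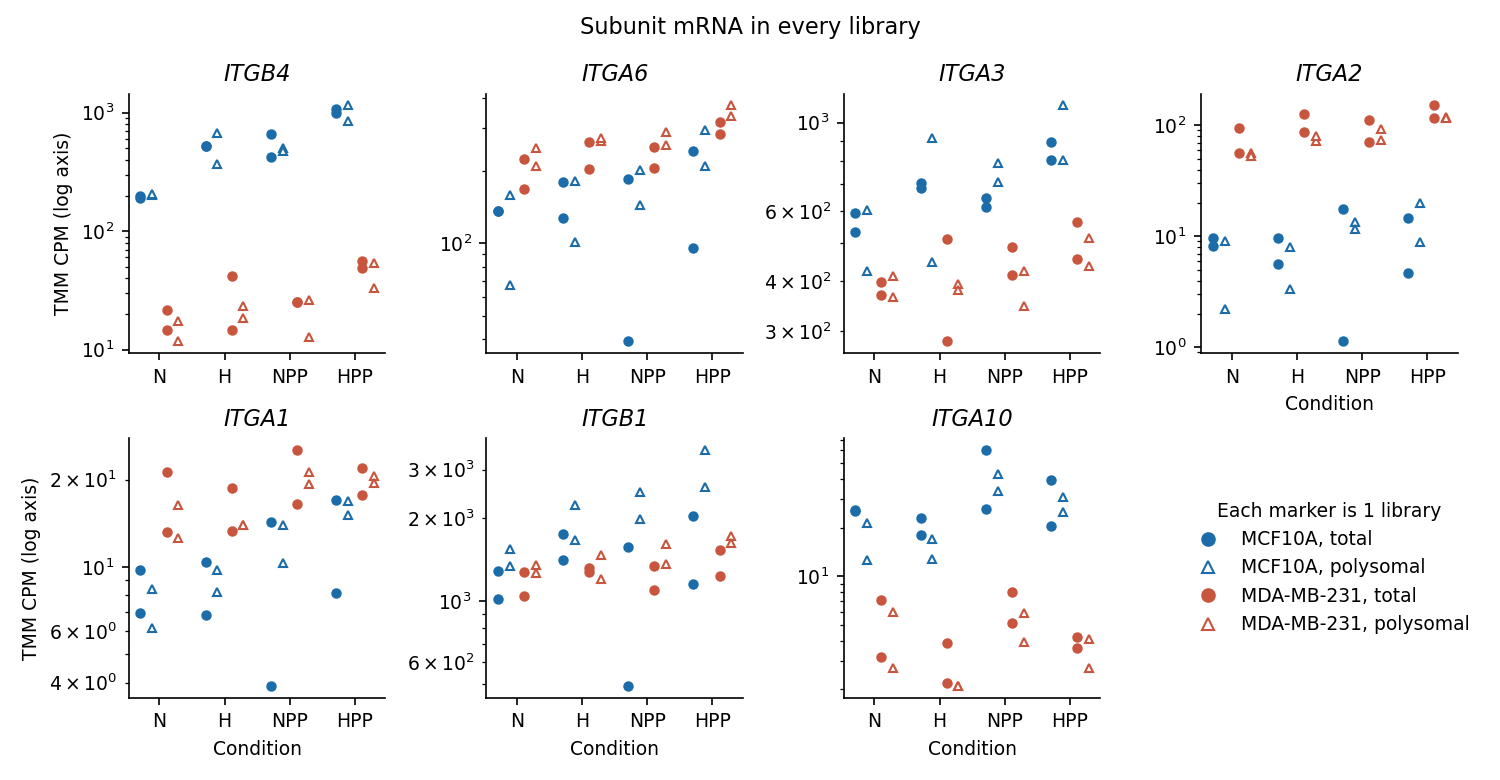
TMM CPM (log axis, scaled within each line) of 7 subunit genes in all 32 libraries. Filled circles are total and open triangles polysomal libraries, 2 per group. ITGB4 in HPP stands above N in both lines, from 192 and 197 to 995 and 1066 CPM in MCF10A total RNA. The low circle of ITGA6, ITGA2, ITGA1 and ITGB1 in MCF10A NPP is total replicate 2.

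In MDA-MB-231, ITGB4 also rose under HPP, from a far lower level. In T it was at 21.6 and 14.7 CPM in N, 41.9 and 14.5 in H, 25.4 and 25.3 in NPP, and 49.3 and 55.9 in HPP. The H libraries spread across the N values, whereas both HPP libraries lay above every other T library. In P the level was 17.3 and 11.7 in N, 23.4 and 18.5 in H, 26.0 and 12.7 in NPP, and 54.2 and 33.1 in HPP. The HPP libraries were again the highest. The message rose 2.88-fold in T (log2 1.53, SE 0.42, adjusted p = 0.0280 by edgeR) and 3.01-fold in P (log2 1.59, SE 0.42, adjusted p = 0.0175). In H the log2 changes were 0.64 ± 0.42 in T and 0.53 ± 0.42 in P (value ± SE), and neither passed.

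ITGA6, the partner of ITGB4, at chr2:172427354-172506459 on the plus strand of GRCh38, was called in MDA-MB-231 as well. In T its level was 223 and 168 CPM in N, 263 and 203 in H, 252 and 205 in NPP, and 318 and 284 in HPP. In P it was 209.7 and 248 in N, 264.5 and 273 in H, 289 and 256.5 in NPP, and 373 and 337 in HPP. Both HPP libraries were above all N libraries in each fraction. The rise under HPP was 1.54-fold in T (log2 0.62, SE 0.17, adjusted p = 0.0311 by edgeR) and 1.55-fold in P (log2 0.64, SE 0.17, adjusted p = 0.0208).

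ITGA2, which forms an epithelial collagen receptor with ITGB1, was also called. The gene lies at chr5:52989340-53094779 on the plus strand. In T it was at 94.3 and 56.1 CPM in N, 125.5 and 86.7 in H, a mean of 90.8 ± 28.6 (SD, n = 2) in NPP, and 152 and 117 in HPP. In P it was at 56.9 and 52.6 in N, 72.2 and 80.3 in H, 93.5 and 74.2 in NPP, and 119 and 117 in HPP. In P the treated groups did not overlap N, and in T HPP alone lay above both N libraries in both replicates. It rose under HPP 1.78-fold in T (log2 0.83, SE 0.26, adjusted p = 0.0454 by edgeR) and 2.15-fold in P (log2 1.11, SE 0.26, adjusted p = 0.00915). In H the fold in P was 1.39 (adjusted p = 0.359) and in NPP it was 1.53 (adjusted p = 0.296, both by edgeR), and with no low-count filter the change in NPP P was called.

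So 3 of the 7 tested members rose in HPP T and the same 3 in HPP P. Of all 13510 tested genes 13.2% and 19.4% were called in either direction there, and 853 and 1312 genes rose. No member was called in H T, H P, NPP T or NPP P, where 1.27%, 2.29%, 0.555% and 1.95% of all genes were. At an unadjusted p under 0.05 these held 0, 1, 0 and 1 members, against 1712, 2327, 1385 and 1838 of the 13510 genes. DESeq2 called no member, against 353, 652, 251 and 529 genes. The median log2 change of the 7 members was 0.41 in HPP T and 0.47 in HPP P, against −0.05 and 0.01 over all genes. ITGA2 in T passed in 5 of 16 fits with a library left out, and with all gene classes in the fit its adjusted p was 0.0584 by edgeR. The calls rested on few libraries: without HPP replicate 1, HPP replicate 2 or N replicate 2 of T, no member was called in T, and without HPP replicate 1 or N replicate 2 of P, 0 were called in P.

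ITGA6 and ITGA2 were called together in HPP of this line, and hypoxia was part of that condition. The 250 bases before their start sites are therefore shown with the core letters of the HIF binding element. Neither gene was called in H T or H P of this line. ITGB4, called in HPP as well, had no window among those searched. The windows are from RefSeq on GRCh38.p14. They were searched for ACGTG and GCGTG on both strands, where the palindrome CACGTG counts on each strand, and the matches are in capitals. The ITGA6 window, chr2:172427086-172427335 on the plus strand, has 3 matches, the first 158 bases before the start and an overlapping pair that ends in one 100 bases before it, and the ITGA2 window, chr5:52989102-52989351 on the plus strand, has 1 that begins 168 bases before it.
ITGA6: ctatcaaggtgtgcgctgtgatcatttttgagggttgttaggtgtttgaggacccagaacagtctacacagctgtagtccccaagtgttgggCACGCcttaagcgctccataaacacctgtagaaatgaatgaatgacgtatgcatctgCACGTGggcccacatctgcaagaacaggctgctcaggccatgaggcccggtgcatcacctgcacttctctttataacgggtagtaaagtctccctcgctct
ITGA2: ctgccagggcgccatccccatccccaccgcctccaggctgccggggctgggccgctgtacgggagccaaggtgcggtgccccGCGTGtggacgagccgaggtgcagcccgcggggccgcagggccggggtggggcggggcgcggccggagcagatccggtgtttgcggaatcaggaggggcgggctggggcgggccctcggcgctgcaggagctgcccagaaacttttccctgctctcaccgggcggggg
A second start site of ITGA6 in the table, next to the first, had 1 match. Such letters are common. They were present in 43.2% of 35116 promoter windows of this length and in 4 of the 8 windows found for 6 of the members (ITGA1, ITGA2, ITGA6, ITGA10, ITGA11 and ITGB1). A match describes the sequence and does not show that a factor binds it.

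The same genes were not called in MCF10A, where the replicates lay further apart. ITGA6 in MCF10A T was at 136 and 137 CPM in N, 180 and 127 in H, 185 and 39.1 in NPP, and 240 and 95.8 in HPP, and in P it was at 67.4 and 159 in N and 209.7 and 294 in HPP (2.22-fold, adjusted p = 0.231 by edgeR). The low T values were those of the libraries that stood apart. ITGA2 in P was at 2.23 and 9.08 in N and at 8.94 and 20.0 in HPP, which overlapped (2.54-fold, adjusted p = 0.358). In T it was at 9.61 and 8.13 in N and 14.6 and 4.70 in HPP. The low N values in P, 67.4 for ITGA6 and 2.23 for ITGA2, were those of N P replicate 1. The part of that library in these P folds was not tested.

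The remaining members were not called under any condition in either line by edgeR in the fit of all 16 libraries with the low-count filter and no block. With a replicate block within fraction, ITGA1 and ITGB1 were called in HPP P of both lines and ITGA3 in that of MCF10A. The share of all genes called with that block is not given here, so these calls say nothing about the members as a set. ITGA3 in MCF10A P was at 424 and 603 CPM in N and at 803 and 1105 in HPP, which did not overlap (1.86-fold, adjusted p = 0.0731 by edgeR). DESeq2 called this change. In T the values were 532 and 592 in N and 894 and 803 in HPP, also without overlap (1.51-fold, adjusted p = 0.267 by edgeR). In MDA-MB-231 its log2 change in HPP was 0.41 ± 0.22 in T and 0.29 ± 0.22 in P (value ± SE). ITGB1 in MCF10A P was at 1339 and 1545 CPM in N and at 2598 and 3537 in HPP (2.13-fold, adjusted p = 0.122 by edgeR). In MDA-MB-231 P its values were 1353 and 1266 in N and 1728 and 1629 in HPP (1.28-fold, adjusted p = 0.140). A fit of only the libraries compared called this change (adjusted p = 0.0468 by edgeR). In P the groups did not overlap in either line. In MCF10A T they did, at 1282 and 1016 in N and 2035 and 1157 in HPP. ITGB1 has a processed pseudogene, ITGB1P1, whose counts were 1.33% to 3.31% of those of ITGB1, so its level is uncertain by about that share.

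ITGA1, which binds collagen IV by preference, was at 6.18 and 8.38 CPM in MCF10A N P and at 15.1 and 16.8 in HPP P (2.19-fold, adjusted p = 0.143 by edgeR). In MDA-MB-231 P the values were 16.4 and 12.6 in N and 20.6 and 19.5 in HPP (1.39-fold, adjusted p = 0.199). PELO, on the same strand, shares 499 exonic bases with ITGA1 in GENCODE v44 and the pseudogene RPL17P21 shares 571, so reads from these bases cannot be told apart. ITGA10, a collagen receptor subunit known from cartilage, was the one tested member with a negative log2 change in MDA-MB-231 HPP, at −0.42 ± 0.42 in T and −0.34 ± 0.42 in P (value ± SE). In P it was at 5.97 and 2.71 CPM in N and 2.10 and 2.09 in H (log2 −1.03, SE 0.44, adjusted p = 0.248 by edgeR). Its replicates in N P differed by more than that change, which was called when no low-count filter was applied. In NPP its log2 change was positive, at 0.33 in T and 0.20 in P. In MCF10A NPP P it was at 33.6 and 43.1 CPM against 12.5 and 21.3 in N (2.26-fold, adjusted p = 0.239). ITGA7 lay between 0.123 and 0.670 CPM in MCF10A over all conditions and was not called. ITGA11 reached 0.258 CPM in MCF10A and 0.568 in MDA-MB-231, and both its values and those of ITGA7 in MDA-MB-231 did not pass the low-count filter.

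Without both MCF10A libraries that stood apart, the spread in that line was smaller and 31.7% of all tested genes were called in HPP P. In that fit ITGA1 (log2 1.18, SE 0.28, adjusted p = 0.0105), ITGB1 (log2 1.14, SE 0.29, adjusted p = 0.0140) and ITGA6 (log2 1.21, SE 0.42, adjusted p = 0.0479) were called by edgeR beside ITGB4, as was ITGB4 in H P (log2 1.40, adjusted p = 0.0368), where 2.52% of all genes were. ITGA2, ITGA3, ITGA10 and ITGA7 did not pass, at log2 changes of 1.40, 0.95, 0.78 and 1.00, nor did ITGA11, which passed the low-count filter in that fit (log2 0.78, SE 0.98, adjusted p = 0.565). In HPP T of the same fit ITGB4 alone was called, against 12.1% of all genes. The log2 change there went from 0.30 to 0.84 for ITGA6, from 0.47 to 0.85 for ITGB1, from 0.59 to 1.06 for ITGA1, from 0.13 to 0.75 for ITGA2 and from 0.23 to 0.66 for ITGA10, while ITGA3 was at 0.69, ITGA11 at 0.71 and ITGA7 at −0.37. Over the 3 conditions in P the calls went from 1 to 5. Leaving out single libraries gave 5 without NPP T replicate 1, 4 without NPP T replicate 2, 3 without H P replicate 1 and 2 without H P replicate 2.

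**Figure D3:**
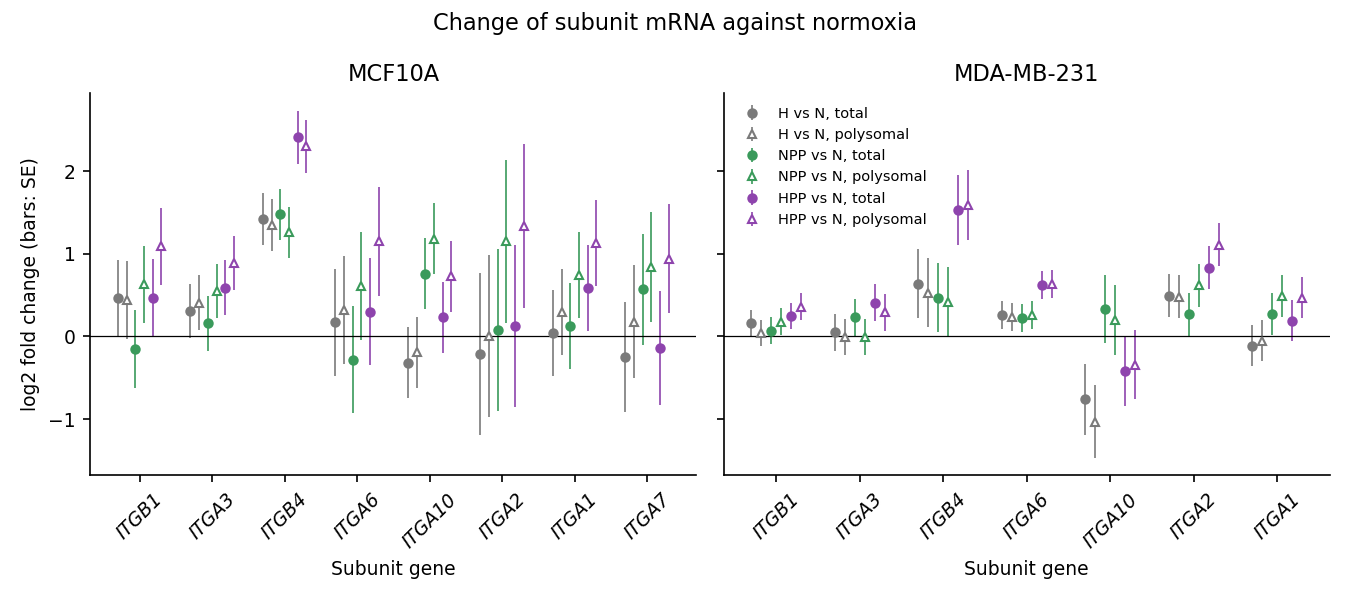
log2 fold change against N of each tested member in MCF10A (left) and MDA-MB-231 (right), with bars of 1 SE. Filled circles are total and open triangles polysomal RNA, for H, NPP and HPP. ITGB4 stands highest in both lines under HPP, at 2.41 and 2.30 on the left and 1.53 and 1.59 on the right, and the bars of the other members are wide in MCF10A.

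The ratio of the ITGB4 to the ITGA6 message, the chains of the hemidesmosome integrin, was formed per kb in each library. In MCF10A T it was 1.43 and 1.38 in N, 2.84 and 4.04 in H, 2.26 and 16.6 in NPP, and 4.08 and 11.0 in HPP. The values of 16.6 and 11.0 came from the libraries that stood apart. In P it was 2.98 and 1.28 in N and 4.04 and 3.87 in HPP, with H at 3.62 and 3.68 and NPP at 2.49 and 3.22, of which NPP overlapped N. In MDA-MB-231 the ITGB4 message was always the scarcer, at a ratio of 0.0957 and 0.0864 in N T, 0.157 and 0.0705 in H T, 0.0995 and 0.122 in NPP T, and 0.153 and 0.194 in HPP T, of which H spanned N. In P the ratio was 0.0816 and 0.0467 in N, 0.0873 and 0.0670 in H, 0.0887 and 0.0487 in NPP, and 0.143 and 0.0968 in HPP, and both H and NPP overlapped N. HPP lay above N in both fractions of both lines, with no overlap between the libraries. Across all libraries the ITGB1 message was 0.913 to 3.96 times the sum of the 7 α messages per kb, with the lowest value again in MCF10A NPP T replicate 2. ITGA3 made up 72.7% to 91.4% of the α messages in MCF10A and 54.3% to 68.0% in MDA-MB-231, while ITGA2 made up 4.95% to 11.4% in MDA-MB-231 and at most 1.30% in MCF10A. The ratio of ITGB1 to the α messages and these shares depend on the length used. ITGB1 has 3735 bases in its canonical transcript and 14561 in its exon union. By exon union ITGB1 was at 92.9 CPM per kb in MCF10A N T and ITGA3 at 67.6, so no excess of the β message is claimed.

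**Figure D4:**
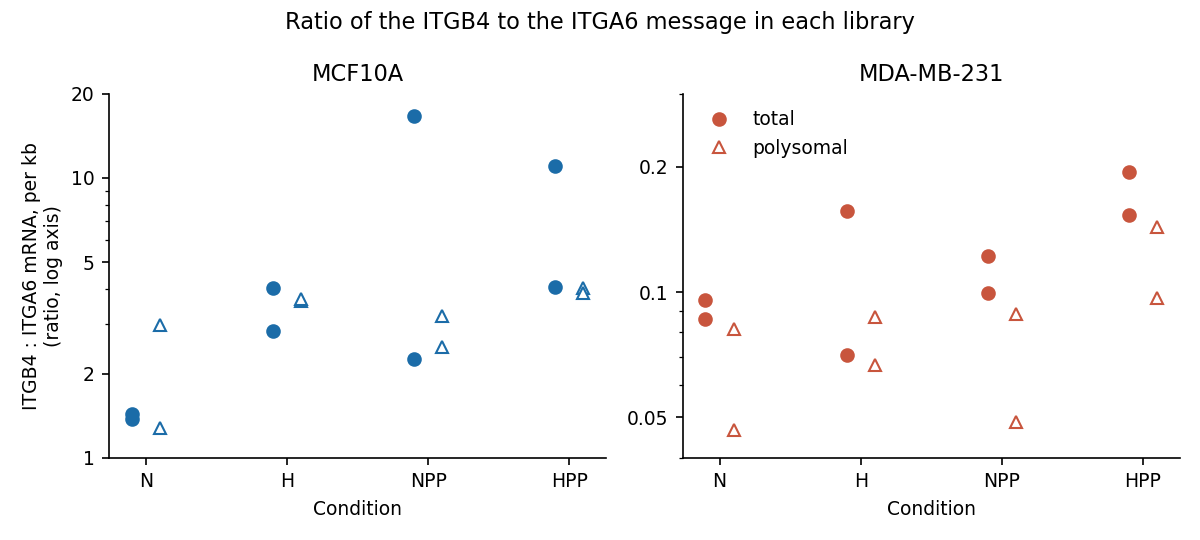
Ratio of ITGB4 to ITGA6 mRNA per kb (log axis) in each library of MCF10A (left) and MDA-MB-231 (right), by condition. Filled circles are total and open triangles polysomal libraries. The ratio is above 1 in every MCF10A library and below 0.2 in every MDA-MB-231 library, and the circles at 16.6 and 11.0 are the MCF10A libraries that stood apart.

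Whether polysome association changed beyond the message level was tested as Te, the log2 change in P minus that in T. No member was called for Te in any of the 3 conditions of either line, by edgeR or by DESeq2, and none had an unadjusted p under 0.05. Between 23 and 454 of all genes passed that unadjusted cut in each comparison. Over all genes Te calls made up 0.0% for H, NPP and HPP of MCF10A, and 0.0148%, 0.34% and 0.696% for those of MDA-MB-231. For ITGB4 under HPP, Te in MCF10A was −0.11 ± 0.44, and that of MDA-MB-231 was 0.06 ± 0.58 (value ± SE). Differences between P and T of this order were not detectable with 2 replicates. ITGA6 in MDA-MB-231 had a Te of 0.01 ± 0.25 and ITGA2 of 0.27 ± 0.36. In MCF10A the HPP Te of the 8 members had a median of 0.58 and ran up to 1.22 for ITGA2, with a SE of 1.39. Without both libraries that stood apart the median was 0.27, ITGA2 was at 0.65 ± 0.96, and the highest value was that of ITGA7, at 1.37 ± 1.03, a gene of few counts.

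In normoxia no member was called for P against T. The log2 differences ran from −0.64 to 0.33 in MCF10A, where 0.0% of all genes were called, and from −0.46 to 0.23 in MDA-MB-231, where 13.1% were. No member had an unadjusted p under 0.05 in either line, and DESeq2 called none.

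The addition of PP242 to hypoxic cells, HPP against H, gave no called member either. Of all genes of MCF10A, 3.74% were called in T and 6.5% in P, and of those of MDA-MB-231 3.78% and 11.5%. The median log2 difference of the members was 0.31 in T and 0.83 in P of MCF10A and 0.35 and 0.52 in MDA-MB-231, against −0.03 to 0.0 over all genes. Without both MCF10A libraries that stood apart the medians of that line were 0.78 and 0.84. ITGB4 was at 1.98-fold in MCF10A T (adjusted p = 0.114 by edgeR) and at 1.92-fold in P (adjusted p = 0.0991), and DESeq2 called both, as did the replicate block within fraction (adjusted p = 0.0459 and 0.0352 by edgeR). Without both libraries that stood apart the log2 differences were 0.92 and 0.95 (adjusted p = 0.220 and 0.0649 by edgeR). In MDA-MB-231 its folds were 1.85 and 2.08 (adjusted p = 0.261 and 0.115 by edgeR). ITGA2 was at 1.55-fold in MDA-MB-231 P (adjusted p = 0.130). Both genes were called in P of that line with no low-count filter and in a fit of only the libraries compared, and ITGB4 in T with no filter. The replicate block called both genes in P and ITGB4 in T. With the block within fraction ITGA1, ITGA2, ITGA6 and ITGB4 were called in P. At an unadjusted p under 0.05 MCF10A had 1 and 1 members in T and P, against 2078 and 2752 of 13124 genes. MDA-MB-231 had 1 and 3 members, against 2500 and 3592 of 13510 genes.

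The effects were compared between the lines in the fit of all 32 libraries. No member was called for a different response in T, P or Te, and none had an unadjusted p under 0.05 in the 9 comparisons. Between 110 and 2392 of all genes passed that unadjusted cut in each. DESeq2 called no member. Over all genes the calls in T were 0.266% for H, 0.056% for NPP and 3.31% for HPP, those in P were 0.329%, 0.126% and 3.6%, and those in Te were 0.0%, 0.0% and 0.0%. For ITGB4 the log2 change under HPP in MDA-MB-231 minus that of MCF10A was −0.79 ± 0.58 for T and −0.74 ± 0.58 for P (value ± SE). For ITGA6 it was 0.43 ± 0.71 in T and −0.54 ± 0.71 in P, and for ITGA2 0.82 ± 1.05 and −0.25 ± 1.05. In HPP P the 8 members had negative differences, with a median of −0.71 against 0.05 over all genes. The calls of ITGA6 and ITGA2 in MDA-MB-231 alone therefore do not show that the lines differ. Without MCF10A NPP T replicate 1, calls of ITGA2, ITGA6 and ITGB1 in the line difference of NPP T rested on replicate 2 alone. That library stood apart, so these calls decide nothing.

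Some ligands of these receptors were called in the same comparisons. Of 12 laminin chains 10 were tested in each line. In MCF10A HPP 3 rose in T and 4 in P, against 14.9% and 22.2% of all tested genes called in either direction. LAMB3, the β chain of laminin-332, rose 6.43-fold in T (adjusted p = 0.000447 by edgeR) and 10.5-fold in P (adjusted p = 0.000123). LAMA1 rose 2.65-fold in T and 3.81-fold in P. LAMB2 rose 3.78-fold in P. LAMA3, the α chain of laminin-332, was at 1.44-fold in T and 1.66-fold in P and did not pass. In MDA-MB-231 HPP 2 chains rose and 1 fell in T and 3 rose and 1 fell in P, against 13.2% and 19.4% of all genes. LAMB3 rose 1.99-fold in T and 1.94-fold in P. LAMB2 rose in P alone (1.61-fold), and LAMA3 fell to 0.348 of its N level in T (adjusted p = 0.0231 by edgeR) and 0.361 in P. No laminin chain was called in H in either line.

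Of 17 collagen chains 14 were tested in MCF10A and 13 in MDA-MB-231. COL1A1, a chain of fibrillar collagen I, rose in MCF10A H (3.20-fold in T, 2.77-fold in P) and in HPP (2.30-fold and 3.23-fold). In HPP P, COL1A2 (11.0-fold), COL5A3 (7.19-fold) and COL6A1 (2.33-fold) rose as well, and COL6A1 also in T (2.05-fold). The calls in HPP were thus 2 of 14 in T and 4 of 14 in P, against 14.9% and 22.2% of all genes. In MDA-MB-231 the calls were COL4A4 in HPP T and P (2.43-fold and 3.22-fold) and COL7A1, the anchoring fibril collagen, in HPP P (2.17-fold), which made 1 of 13 in T and 2 of 13 in P, against 13.2% and 19.4% of all genes. The tested chains had a median log2 change in HPP P of 1.25 (MCF10A) and 0.47 (MDA-MB-231), against −0.04 and 0.01 over all genes.

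Hemidesmosome genes other than the integrin were the transmembrane collagen COL17A1, the linkers PLEC and DST, the tetraspanin CD151 and the basal keratins KRT5 and KRT14. In MCF10A HPP, KRT14 rose 5.18-fold in T (adjusted p = 0.00565 by edgeR) and 4.84-fold in P, and COL17A1 3.62-fold and 3.37-fold. PLEC was at 2.22-fold in T and 3.22-fold in P with SEs of 0.73 and 0.74 on the log2 scale and did not pass. In MDA-MB-231 HPP, COL17A1 alone rose in T, 1.76-fold (adjusted p = 0.0153 by edgeR), and none of the 5 tested genes was called in P. Of all genes of that line 13.2% and 19.4% were called. KRT5 was not tested there. In H no gene of the list passed in either line. Of the basal keratins outside the list, KRT6A rose in MCF10A H (log2 2.71 in T, 3.00 in P) and HPP (2.06 and 1.85), and KRT17 in HPP. With KRT14, 3 of 5 tested epithelial and basal markers rose in HPP T and HPP P. Of all genes 14.9% and 22.2% were called. Of 6 mesenchymal markers in MCF10A, 3 had a positive log2 change in HPP T and 4 in HPP P, with medians of −0.13 and 0.16. Of these markers FN1 rose in HPP T and P of both lines (log2 1.67 and 2.64 in MCF10A, 1.29 and 1.56 in MDA-MB-231), VIM in HPP T of both (log2 1.73 and 0.75), and endothelial PECAM1 in MCF10A HPP (log2 2.56 and 2.45). EPCAM fell in MDA-MB-231 HPP P (log2 −0.57). The part of these markers in the integrin results was not tested.

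**Figure D5:**
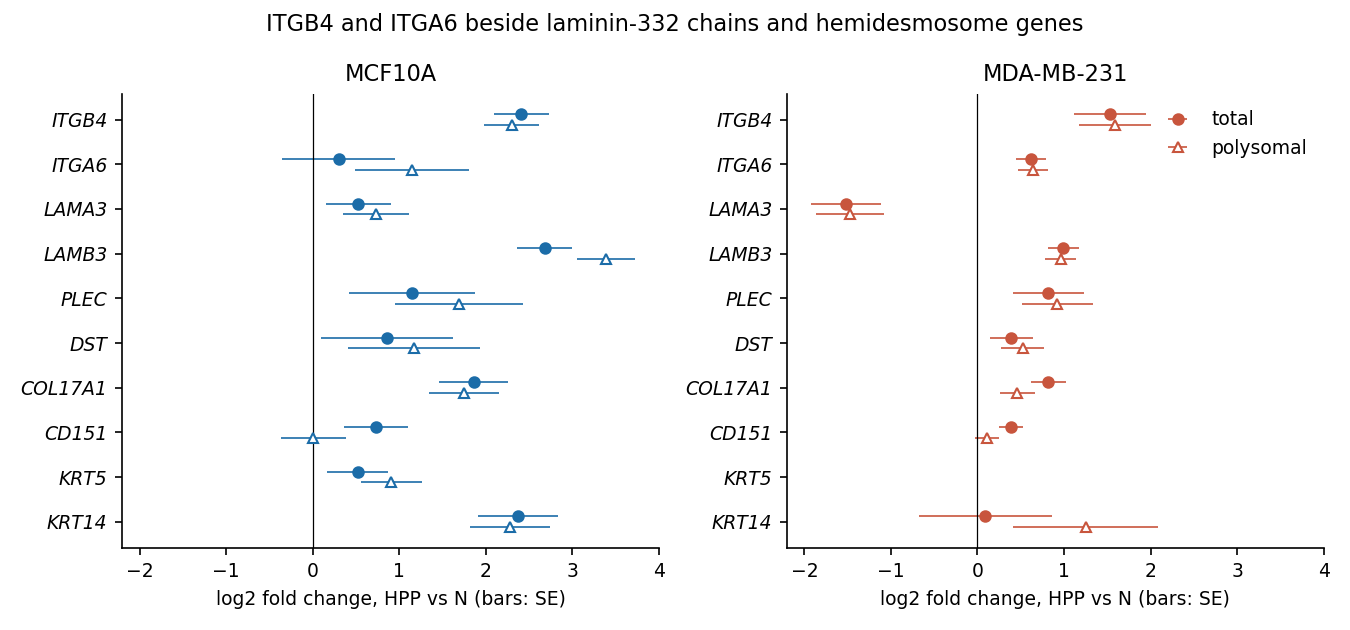
log2 fold change under HPP against N, with bars of 1 SE, for ITGB4 and ITGA6, the laminin chains LAMA3 and LAMB3 and 6 hemidesmosome genes, in MCF10A (left) and MDA-MB-231 (right). Filled circles are total and open triangles polysomal RNA; KRT5 was not tested in MDA-MB-231. LAMA3 lies at −1.52 in MDA-MB-231 T, on the other side of 0 from LAMB3.

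Of the tetraspanins, which sit beside laminin-binding integrins in the membrane, 5 were tested. CD9 rose under HPP in MCF10A (2.57-fold in T, 2.88-fold in P) and in MDA-MB-231 (1.61-fold and 1.59-fold), and CD82 rose in MCF10A (2.01-fold and 2.51-fold). The calls in T and in P were thus 2 of 5 in MCF10A, against 14.9% and 22.2% of all genes. In MDA-MB-231 they were 1 of 5, against 13.2% and 19.4%. CD9 was also called in MCF10A NPP (3.15-fold in T, adjusted p = 0.0181, and 4.03-fold in P, adjusted p = 0.00474, by edgeR), chosen for mention after its values were seen. Other matrix receptors showed CD44, the hyaluronan receptor, up in HPP T in both lines (2.21-fold and 1.66-fold) and at 1.25-fold and 1.10-fold in P, where it did not pass. SDC4, a syndecan, rose in MCF10A HPP P (2.39-fold) and MDA-MB-231 HPP T (1.34-fold), and DDR1, a collagen receptor kinase, in MDA-MB-231 HPP P (1.78-fold). Of 28 adhesion adaptors 26 were tested. In MCF10A HPP, 3 rose and 1 fell in T and 5 rose and 2 fell in P, shares near the 14.9% and 22.2% of all genes. Among them were PTK2B (2.76-fold in T, 2.78-fold in P), FLNA (2.30-fold in P) and SRC, which fell to 0.417 in T and 0.430 in P. In MDA-MB-231 HPP, PTK2B rose in T (2.26-fold) and VCL, which encodes vinculin, in T and P (1.49-fold and 1.61-fold), so the calls were 2 of 26 in T and 1 of 26 in P, shares below the 13.2% and 19.4% of all genes. No adaptor, tetraspanin or other matrix receptor was called in H.

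The integrin subunits outside the laminin and collagen receptors were counted in the same way. Of these 17 subunits 10 were tested in MCF10A and 7 in MDA-MB-231. ITGA5, the fibronectin receptor subunit, rose under HPP in MCF10A (2.81-fold in T, 3.40-fold in P) and in MDA-MB-231 (1.74-fold and 1.73-fold). ITGAX (7.79-fold and 6.86-fold) and ITGB2 (2.04-fold and 2.19-fold) rose in MCF10A HPP, and ITGB3 (2.49-fold) and ITGAV (1.56-fold) in MDA-MB-231 HPP P. In HPP T the calls were 3 of 10 in MCF10A, beside 1 of 8 for the laminin and collagen receptor subunits, and 1 of 7 in MDA-MB-231, beside 3 of 7, against 14.9% and 13.2% of all genes. In HPP P they were 3 of 10 in MCF10A, beside 1 of 8, and 3 of 7 in MDA-MB-231, beside 3 of 7. Over all genes the shares in P were 22.2% and 19.4%, and the difference between the groups of subunits was not tested.

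Genes whose profile was most like that of the β subunits were found by Pearson's r of log2 CPM over the 16 libraries of a line, as a description. For ITGB4 in MCF10A they were OSBP2 (0.966), SLCO4A1 (0.964) and TSC22D3 (0.958), and in MDA-MB-231 L1CAM (0.951), CLSTN3 (0.946) and FN1 (0.939). For ITGB1 they were LRRFIP1 (0.972), PROS1 (0.952) and BLZF1 (0.949) in MCF10A, and PROS1 (0.963) and APLP2 (0.935) were among them in MDA-MB-231. Among the members themselves ITGA2 and ITGA6 were closest in MCF10A (r = 0.942), and ITGA2 and ITGB4 in MDA-MB-231 (r = 0.838). For ITGB4 with ITGA6 the r was 0.283 (MCF10A) and 0.672 (MDA-MB-231). The libraries share treatments and scaling, so these values hold the treatment effects and, in MCF10A, the libraries that stood apart.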

How the data were processed

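The authors prepared poly(A)-selected libraries with no strand stated and, per the labels' processing notes and the methods, used STAR, RSEM and edgeR. The authors deposited expected counts as whole numbers, unscaled, with each annotated gene as a row. The methods name GRCh38 with GENCODE annotation and the processing notes name GRCh37. Coordinates and lengths given here are from GENCODE v44 on GRCh38. RSEM divides reads that fit several genes, and antisense genes overlap ITGA1, ITGA6, ITGA7, ITGA10 and ITGB1, so those reads cannot be told apart.

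Protein-coding counts were analysed with edgeR 4.0.16 in R 4.3.3. The 16 libraries of a line were fitted in 8 groups, and all 32 for comparisons of the lines, after filterByExpr and TMM. The tests were quasi-likelihood F tests with Benjamini-Hochberg adjustment over all tested genes and a threshold of 0.05. Te was the interaction of fraction and treatment, and each SE comes from the F statistic. DESeq2 1.42.0 was an alternative. Biological coefficients of variation were 0.325 (MCF10A) and 0.150 (MDA-MB-231). The log2 difference of replicates had an SD over genes of at least 0.242, so none was a copy. The labels call them biological replicates. The script was tested on simulated data.

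All 9 members were reported. In each gene list at most 4 called genes per line and condition were named, by size of change. Some genes of these lists are counted but not reported here by name. The members and lists were chosen with earlier results of these data known.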

Additional observations from a re-analysis of the deposited data

How the results depend on the processing

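The called members are counted over the conditions of a fraction. Except where given above, the share of all genes called in an alternative is not set beside the counts. They describe the calls of members only. In MCF10A T the 2 calls became 1 with RLE size factors, no low-count filter or all gene classes, since ITGB4 in H was lost, and 3 at an adjusted p under 0.10, by DESeq2 or with a replicate block within fraction, since ITGB4 in NPP was gained. In MCF10A P the 1 call became 4 at an adjusted p under 0.10 or by DESeq2, 6 with a replicate block within fraction, and 5 with both libraries that stood apart left out, an alternative chosen after seeing the data. For HPP against H the 0 calls of MCF10A became 1 at an adjusted p under 0.10 and 2 by DESeq2 or the block within fraction. In MDA-MB-231 T the 3 calls became 1 at an absolute log2 change of at least 1, and in P they became 5 with no filter (ITGA10 in H and ITGA2 in NPP gained) and 6 with the block within fraction. For HPP against H the 0 calls of MDA-MB-231 became 3 with no filter or the replicate block (ITGB4 in T, ITGB4 and ITGA2 in P), 4 with the block within fraction (ITGA1, ITGA2, ITGA6 and ITGB4 in P) and 2 with only the libraries compared (ITGB4 and ITGA2 in P).

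With each library left out the calls ran from 1 to 3 in MCF10A T, 1 to 5 in MCF10A P, 0 to 4 in MDA-MB-231 T, 0 to 3 in MDA-MB-231 P, 0 to 3 for HPP against H in MDA-MB-231, 2 to 5 between lines and 0 to 3 in the line difference of effects. Te and normoxic polysome loading stayed at 0 calls under every alternative run, the culture block and the z-score rule included. The culture block paired the T and P libraries that share a number in their titles, though no label says that it marks a culture. No log2 change of a called member reversed. The cause of these shifts was not tested.

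Replicate numbers were not taken as pairs over both fractions, since no label says that a number marks a shared batch. Between T groups of MCF10A the replicate differences correlated at 0.406 to 0.871, between its P groups at −0.165 to 0.741 and between T and P groups at −0.727 to 0.185. The same 3 kinds of pair gave −0.218 to 0.483, −0.013 to 0.415 and −0.179 to 0.446 for MDA-MB-231, with 12 of 16 correlations of T with P over 0.1. The plain replicate block left 2 calls in T and 1 in P of MCF10A, and 3 and 4 of MDA-MB-231, where ITGB1 in HPP P was gained. The block within fraction gained ITGB4 in H P and NPP P and ITGA1, ITGA3 and ITGB1 in HPP P of MCF10A, and ITGA1 and ITGB1 in HPP P and ITGA2 in NPP P of MDA-MB-231. ITGA7 and ITGA11 had at most 29 and 11 counts in a library, so changes in them were hardly detectable at this depth.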
